A study of Mus musculus with 6 samples.

Results

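Imprinted genes are transcribed mainly from the copy inherited from 1 parent, and many of them set how fast the embryo and placenta grow. The imprinted growth-control genes described here were chosen by name, as 10 genes: H19, Igf2, Igf2r, Cdkn1c, Phlda2, Peg3, Peg10, Mest, Grb10 and Snrpn. Of these, 8 had a probeset (the set of array probes read as a single value) annotated to that gene alone. H19 and Snrpn had only probesets that carry the name of another gene as well, so no value is given for them. The 8 measured genes stand beside 22180 genes with a probeset of their own on the array. Of the 8, 7 entered the fit across 14020 genes, and Grb10, which reached the array's median on 1 of the 6 arrays, did not.

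The arrays held RNA of blastocysts, the embryo stage just before implantation, in 3 groups of 2 arrays. Every group came from let7g-transgenic mice, including the comparison group, and the labels do not name the promoter that drives the transgene. D4-act-7g were activated blastocysts of day 4, Dor-7g were blastocysts dormant in vivo on day 7, and DOX-7g were blastocysts that DOX-induced let-7 had made dormant in vitro on day 7. Per the labels, RNA of each group was taken from 10 blastocysts by heating them in water. Whether both arrays of a group were made from separate pools is not stated, so p-values measure only the spread between these arrays. Between DOX-7g and D4-act-7g, let-7 induction, dormancy, culture and day vary together, as DOX may, and cannot be told apart. The same holds for day and dormancy between Dor-7g and D4-act-7g. Between DOX-7g and Dor-7g, let-7 induction and culture vary together, as DOX may, and cannot be told apart either. The labels do not say whether the other 2 groups received DOX.

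Growth-promoting and growth-restraining imprinted genes act against each other. Igf2 encodes a growth factor, and Igf2r encodes a receptor that removes it. Cdkn1c, a cyclin-dependent kinase inhibitor, and Phlda2, a brake on placental growth, lie in a cluster of genes that are expressed from the maternal copy. Peg3, Peg10 and Mest are expressed from the paternal copy, and Grb10 encodes an adaptor that dampens insulin and IGF signalling. An array value adds both copies together, so it does not show which parent's copy was transcribed.

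The microRNA let-7g is shown first because the transgene of these mice is named for it, followed by the promoter windows of the measured gene with the widest range of group means, Phlda2, and of Igf2r, another maternally expressed growth inhibitor, whose range was small. All 3 are RefSeq sequences of build GRCm38.p6, written 5′ to 3′. In the microRNA of 22 bases the capitals mark the seed, bases 2 to 8, and in the promoter windows, which run from 250 bases before to 50 bases after an annotated start, they mark each CG, the letters at which DNA can be methylated. The Phlda2 window is chr7:143502475-143502774 and that of Igf2r is chr17:12769657-12769956, both on the minus strand.
mmu-let-7g-5p: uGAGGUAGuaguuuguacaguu
Phlda2: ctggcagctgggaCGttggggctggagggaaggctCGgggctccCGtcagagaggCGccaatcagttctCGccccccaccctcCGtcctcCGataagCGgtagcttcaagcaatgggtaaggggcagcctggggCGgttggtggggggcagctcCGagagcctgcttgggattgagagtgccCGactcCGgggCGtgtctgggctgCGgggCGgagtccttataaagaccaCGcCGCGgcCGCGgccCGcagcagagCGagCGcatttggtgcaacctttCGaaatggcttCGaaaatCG
Igf2r: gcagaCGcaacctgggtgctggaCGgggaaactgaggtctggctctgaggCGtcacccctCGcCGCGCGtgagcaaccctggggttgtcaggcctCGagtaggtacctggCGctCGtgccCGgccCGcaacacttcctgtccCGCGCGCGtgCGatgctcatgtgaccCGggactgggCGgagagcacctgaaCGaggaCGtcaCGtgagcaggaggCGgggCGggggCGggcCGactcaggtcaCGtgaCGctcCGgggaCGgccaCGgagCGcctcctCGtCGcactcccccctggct

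The Phlda2 window held 26 CG and the Igf2r window 34, against a median of 7 over 32851 such windows. At least 26 CG were found in 16.9% of all windows and at least 34 in 7.73%. Windows were listed for 7 of the 10 genes, 16 windows in all. The letters TGCCGC, which form the core of the motif bound by the imprint-keeping protein ZFP57, were searched on both strands. They occurred in 5 of these 16 windows (1 of 4 for Snrpn, 1 of 4 for Igf2, 1 of 2 for Grb10 and 2 overlapping windows of Mest) and in 11.6% of all windows. The Phlda2 and Igf2r windows did not hold them, which says only that these letters are not in those windows. Array values do not show methylation.

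Over all probesets the array medians were 4.62 to 4.87 log2 units, the highest on Dor-7g replicate 1, whose highest correlation with another array was 0.919 (Pearson's r across probesets). That array was Dor-7g replicate 2, which in turn correlated more with an array of another group (0.95) than with Dor-7g replicate 1. The median gap between the 2 arrays of a group over all genes was 0.36 log2 units for Dor-7g, 0.17 for D4-act-7g and 0.20 for DOX-7g. The tissue label was checked against markers: the trophectoderm list (8 of 8 named) had a mean level of 7.31 to 7.56 on all 6 arrays. Krt8 and Krt18, above 9 log2 units on every array, were its brightest genes and raised that mean. Of the 8, 6 reached the array median on every array. Elf5 was below it on DOX-7g replicate 1 (4.41) and D4-act-7g replicate 1 (4.24), and Tfap2c on Dor-7g replicate 1 (4.67). The primitive endoderm list had a mean of 5.91 to 6.31, highest on both Dor-7g arrays. The epiblast list (6 of 6 named) had means of 5.86 and 5.43 (D4-act-7g), 5.32 and 5.78 (Dor-7g) and 5.11 and 5.16 (DOX-7g), with Sox2 below the array median on every array and Nanog and Pou5f1 above it. In bulk RNA, fewer cells of a type and less RNA per cell cannot be told apart.

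None of the 7 genes in the fit passed the threshold, an adjusted p of 0.05 in limma with Benjamini-Hochberg adjustment over all 14020 genes, in any of the 3 comparisons. The share called over all genes was 0.984% for Dor-7g versus D4-act-7g, 0.956% for DOX-7g versus D4-act-7g and 1.16% for DOX-7g versus Dor-7g. At an unadjusted p under 0.05 the counts among the 7 were 0, 2 and 1, against 14.3%, 11.0% and 11.6% of all genes. The 2 were Phlda2 and Cdkn1c, both higher in DOX-7g than in D4-act-7g, and the 1 was Phlda2, higher in DOX-7g than in Dor-7g.

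**Figure D1:**
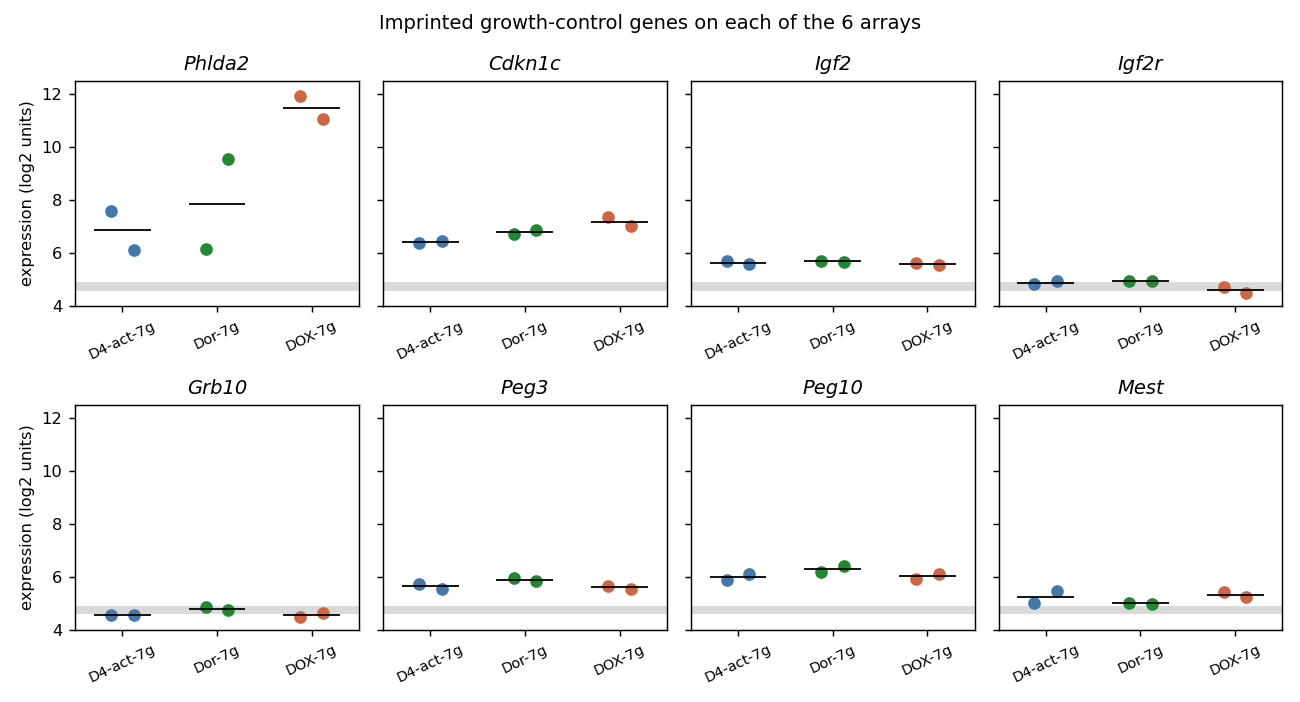
Expression in log2 units (vertical axis) of the 8 measured genes on each array, by group; each point is an array (replicate 1 left, replicate 2 right), the line is the group mean, and the grey band spans the array medians of 4.62 to 4.87. Phlda2 stood at 11.93 and 11.06 in DOX-7g and between 6.13 and 9.54 elsewhere, and the other 7 genes varied far less.

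Phlda2 encodes a small pleckstrin-homology protein that restrains growth of the placenta. Its level was 7.59 and 6.13 log2 units on D4-act-7g replicates 1 and 2, 6.14 and 9.54 on Dor-7g replicates 1 and 2, and 11.93 and 11.06 on DOX-7g replicates 1 and 2. Both DOX-7g arrays lay above all 4 others, whereas the Dor-7g arrays stood far apart and overlapped the D4-act-7g range. DOX-7g (11.50 ± 0.61, SD, n = 2) exceeded D4-act-7g (6.86 ± 1.04, SD, n = 2) by 4.64 ± 1.13 log2 units (SE), a fold of 24.8, with a 95% interval of 1.86 to 7.42 (limma, adjusted p = 0.19).

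In DOX-7g versus D4-act-7g, 41 of 14020 genes had a higher difference than Phlda2 and 493 a smaller p-value, and of the 42 genes at least as much higher as Phlda2, itself included, 33 passed the threshold. The pooled SD of Phlda2 within groups was 1.55 log2 units, larger than that of 99.2% of genes (median 0.23). Most of it came from the gap of 3.40 between the Dor-7g arrays, against gaps of 1.46 and 0.87 between the arrays of D4-act-7g and DOX-7g. When an array is left out, the 1 that remains in its group is assumed to vary like the arrays of the other groups. With only the 4 arrays of DOX-7g and D4-act-7g, the difference of 4.64 passed (limma, adjusted p = 0.0373). Leaving out either Dor-7g array gives this same fit, since the Dor-7g array that remains has no spread of its own. The difference was 4.20 without DOX-7g replicate 1 and 5.07 without DOX-7g replicate 2. It was 5.37 without D4-act-7g replicate 1 and 3.90 without D4-act-7g replicate 2, and it did not pass without any of these arrays. With array weights the call was made as well (adjusted p = 0.0313).

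Against Dor-7g (7.84 ± 2.40, SD, n = 2), DOX-7g was higher in Phlda2 by 3.66 ± 1.13 log2 units (SE; limma, adjusted p = 0.318). This value rested on which Dor-7g array was kept: it was 1.96 without replicate 1 (adjusted p = 0.322) and 5.36 without replicate 2 (adjusted p = 0.0193). Between Dor-7g and D4-act-7g the difference of 0.98 ± 1.13 (limma, adjusted p = 0.717) became 2.68 without Dor-7g replicate 1 (adjusted p = 0.165) and -0.72 without Dor-7g replicate 2 (adjusted p = 0.519). The direction of Phlda2 in blastocysts dormant in vivo was therefore not settled by these 2 arrays.

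**Figure D2:**
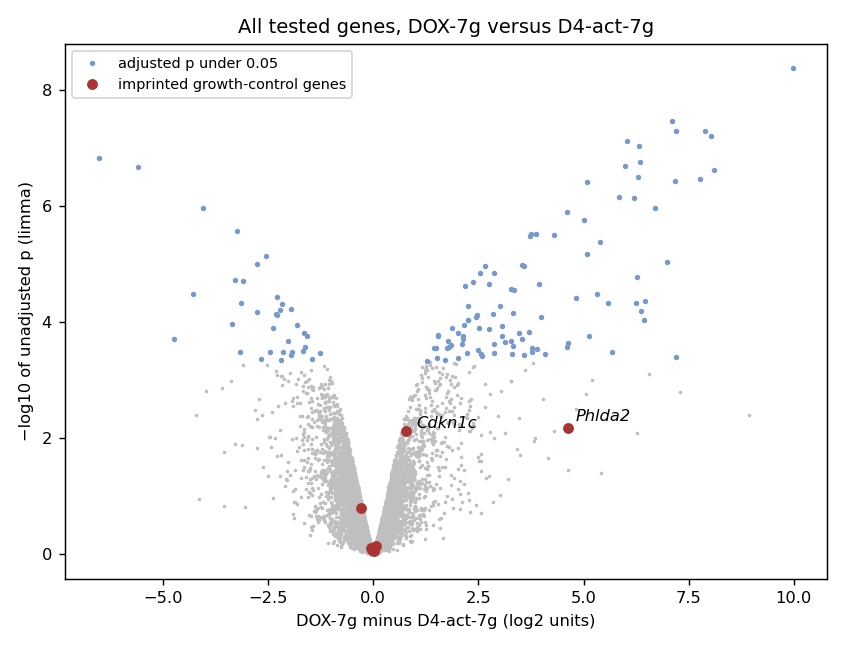
Difference between DOX-7g and D4-act-7g in log2 units (horizontal axis) against −log10 of limma's unadjusted p (vertical axis) for the 14020 genes of the fit; blue points passed an adjusted p of 0.05, red points are the 7 imprinted growth-control genes tested. Phlda2 lies at 4.64, far to the right but below the blue points, Cdkn1c at 0.78, and the other 5 red points lie near 0.

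Cdkn1c encodes p57Kip2, which stops cells from entering the division cycle. On replicates 1 and 2 it stood at 6.38 and 6.46 log2 units for D4-act-7g, at 6.73 and 6.88 for Dor-7g, and at 7.36 and 7.03 for DOX-7g. The 3 groups did not overlap, in the order D4-act-7g, Dor-7g, DOX-7g. How many of all genes had 3 groups apart was not counted. DOX-7g (7.19 ± 0.23, SD, n = 2) exceeded D4-act-7g (6.42 ± 0.06, SD, n = 2) by 0.78 ± 0.19 (SE), a fold of 1.71, with a 95% interval of 0.30 to 1.25 (limma, adjusted p = 0.2). Dor-7g (6.81 ± 0.10, SD, n = 2) exceeded D4-act-7g by 0.39 ± 0.19 (adjusted p = 0.428), and DOX-7g exceeded Dor-7g by 0.39 ± 0.19 (adjusted p = 0.504).

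In the 15 alternative analyses Cdkn1c stayed higher in each of these comparisons and passed in none of them. Its adjusted p for DOX-7g versus D4-act-7g lay between 0.0644, with array weights, and 0.804, without D4-act-7g replicate 1. Non-overlap of single comparisons was common: the arrays of DOX-7g and D4-act-7g did not overlap in 49.7% of all genes, with DOX-7g higher in 19.2%.

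Igf2, the growth factor that drives fetal and placental growth, was nearly level. Its log2 values on replicates 1 and 2 were 5.71 and 5.58 (D4-act-7g), 5.72 and 5.67 (Dor-7g) and 5.64 and 5.54 (DOX-7g). The values of D4-act-7g overlapped those of both other groups, and the range of the 3 group means was 0.10. The 95% interval was -0.46 to 0.36 for DOX-7g versus D4-act-7g and -0.36 to 0.47 for Dor-7g versus D4-act-7g. Its direction between Dor-7g and D4-act-7g (0.05) turned after a repeat quantile normalization (-0.01) and after centring each array on its median (-0.08), and centring also turned its direction between DOX-7g and Dor-7g, from -0.10 to 0.03.

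Igf2r, which carries IGF2 to the lysosome, had log2 values of 4.84 and 4.93 (D4-act-7g), 4.94 and 4.93 (Dor-7g) and 4.72 and 4.50 (DOX-7g). Both DOX-7g arrays were the lowest of the 6, and the gene lay close to the array median in every group. The difference was -0.28 ± 0.17 against D4-act-7g (SE; limma, adjusted p = 0.69) and -0.32 ± 0.17 against Dor-7g (adjusted p = 0.525). Between Dor-7g and D4-act-7g it was 0.04, which became -0.07 after a repeat quantile normalization and -0.09 after centring.

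Grb10 binds the insulin and IGF receptors from inside the cell and limits their signal. It stood at 4.55 and 4.56 log2 units (D4-act-7g), 4.87 and 4.73 (Dor-7g) and 4.50 and 4.63 (DOX-7g), below the array median on all arrays but 1. In the fit without a filter on low values its differences were 0.25 ± 0.16 for Dor-7g versus D4-act-7g, 0.01 ± 0.16 for DOX-7g versus D4-act-7g and -0.24 ± 0.16 for DOX-7g versus Dor-7g (SE), and none passed (limma, adjusted p = 0.586, 1 and 0.623). A change in so dim a probeset may be compressed.

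Of the paternally expressed genes, Peg3, a zinc finger protein, had log2 values of 5.74 and 5.54 (D4-act-7g), 5.96 and 5.84 (Dor-7g) and 5.65 and 5.55 (DOX-7g). Peg10, a gene derived from a retrotransposon and needed for the placenta, stood at 5.89 and 6.09, 6.18 and 6.40, and 5.92 and 6.11 in the same order. In both genes the 2 Dor-7g arrays were the highest of the 6. Dor-7g exceeded D4-act-7g by 0.27 ± 0.18 in Peg3 (SE; limma, adjusted p = 0.545) and by 0.30 ± 0.19 in Peg10 (adjusted p = 0.526).

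Centring reduced these differences to 0.14 in Peg3 and 0.17 in Peg10. That alternative also moved the median of all genes in Dor-7g versus D4-act-7g from 0.06 to -0.07, and in DOX-7g versus Dor-7g from -0.11 to 0.02. Mest, which encodes a protein of the alpha/beta hydrolase fold, had log2 values of 5.03 and 5.47 (D4-act-7g), 5.03 and 4.99 (Dor-7g) and 5.42 and 5.24 (DOX-7g). The wide gap between the D4-act-7g arrays spanned the other values except the 4.99 of Dor-7g replicate 2. Against D4-act-7g, Mest differed by -0.24 ± 0.21 in Dor-7g (SE; limma, adjusted p = 0.642) and by 0.08 ± 0.21 in DOX-7g (adjusted p = 0.972).

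**Figure D3:**
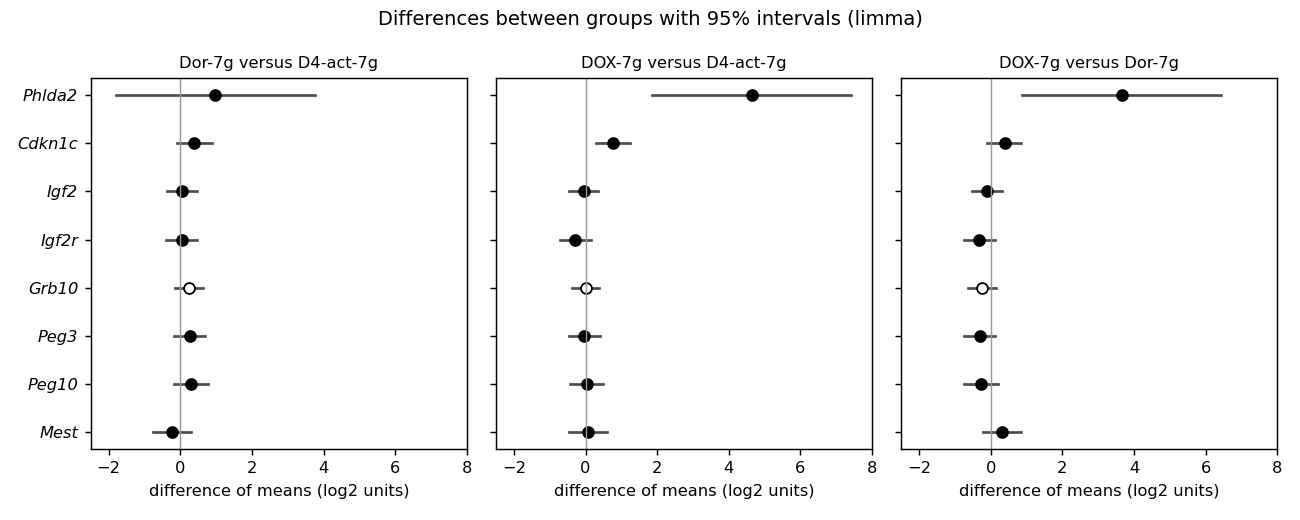
Difference of group means in log2 units (horizontal axis) with limma's 95% interval for the 8 measured genes in the 3 comparisons; the open circle is Grb10, from the fit without a filter. The intervals that leave out 0 are those of Phlda2 in both comparisons with DOX-7g and of Cdkn1c in DOX-7g versus D4-act-7g, before adjustment for the number of genes.

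Over the 7 genes in the fit the median difference was 0.27 for Dor-7g versus D4-act-7g, where that of all genes was 0.06. It was 0.03 for DOX-7g versus D4-act-7g (all genes, -0.05) and -0.10 for DOX-7g versus Dor-7g (all genes, -0.11). In Dor-7g versus D4-act-7g, 3 of the 7 had all Dor-7g arrays above all D4-act-7g arrays (Cdkn1c, Peg3 and Peg10) and none the reverse, where 45.8% of all genes did not overlap and 24.3% were higher. In DOX-7g versus D4-act-7g, 2 were higher on all arrays (Phlda2 and Cdkn1c) and 1 lower (Igf2r), where 49.7% of all genes did not overlap, 19.2% higher and 30.5% lower. In DOX-7g versus Dor-7g all 7 were without overlap, 3 higher (Phlda2, Cdkn1c and Mest) and 4 lower (Igf2, Igf2r, Peg3 and Peg10), where 41.7% of all genes did not overlap, 15.0% higher and 26.7% lower. Both comparisons with D4-act-7g share those 2 arrays, and all 3 pairs share a group.

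Cdkn1c and Phlda2 lie near each other on chromosome 7, so the other imprinted genes of that stretch were set beside them in RefSeq order, a grouping made after the values were seen. Of 14 genes from H19 to Osbpl5, 11 were in the fit, and their median difference was 0.55 for DOX-7g versus D4-act-7g (all genes, -0.05) and 0.32 for Dor-7g versus D4-act-7g (all genes, 0.06). In DOX-7g versus D4-act-7g, 6 of the 11 were higher on all arrays (Ascl2, Cd81, Tssc4, Cdkn1c, Phlda2 and Nap1l4) and Osbpl5 was lower, against 19.2% higher and 30.5% lower over all genes. Cdkn1c and Phlda2, around which the stretch was chosen, are included in these counts and medians, so part of the excess over all genes was set by that choice. None of the 11 passed in any comparison with all 6 arrays.

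Cd81, a tetraspanin of the cell surface, stood at 6.01 and 6.10 log2 units (D4-act-7g), 5.70 and 7.04 (Dor-7g) and 7.62 and 7.23 (DOX-7g). Like Phlda2, it was highest on both DOX-7g arrays and higher on Dor-7g replicate 2 than on replicate 1. DOX-7g exceeded D4-act-7g by 1.37 ± 0.44 log2 units (SE) in limma (adjusted p = 0.331). This passed with only the 4 arrays of these 2 groups (limma, adjusted p = 0.0447), and leaving out either Dor-7g array gives that same fit. Against Dor-7g the difference of 1.05 ± 0.44 (adjusted p = 0.442) became 1.72 without Dor-7g replicate 2 (adjusted p = 0.0208).

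Between Cdkn1c and Phlda2 lies Slc22a18, a transporter gene, at 5.89 and 6.15 log2 units (D4-act-7g), 6.38 and 6.38 (Dor-7g) and 8.03 and 6.02 (DOX-7g). Tnfrsf23, a decoy receptor gene on the other side of Phlda2, stood at 8.63 on DOX-7g replicate 1 and at 4.25 on replicate 2, with 4.32 to 4.90 on the other 4 arrays. Both genes were thus high on DOX-7g replicate 1 alone. Without DOX-7g replicate 2, Tnfrsf23 passed against D4-act-7g (4.25, adjusted p = 0.0127) and against Dor-7g (3.87, adjusted p = 0.0133), but DOX-7g is then the array at 8.63 alone and the spread comes from the other groups only. With both arrays the differences were 2.05 and 1.68 (limma, adjusted p = 0.697 and 0.619). Kcnq1ot1, the RNA that silences this cluster on the paternal copy, stood between 4.24 and 4.76, below the array median on every array.

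**Figure D4:**
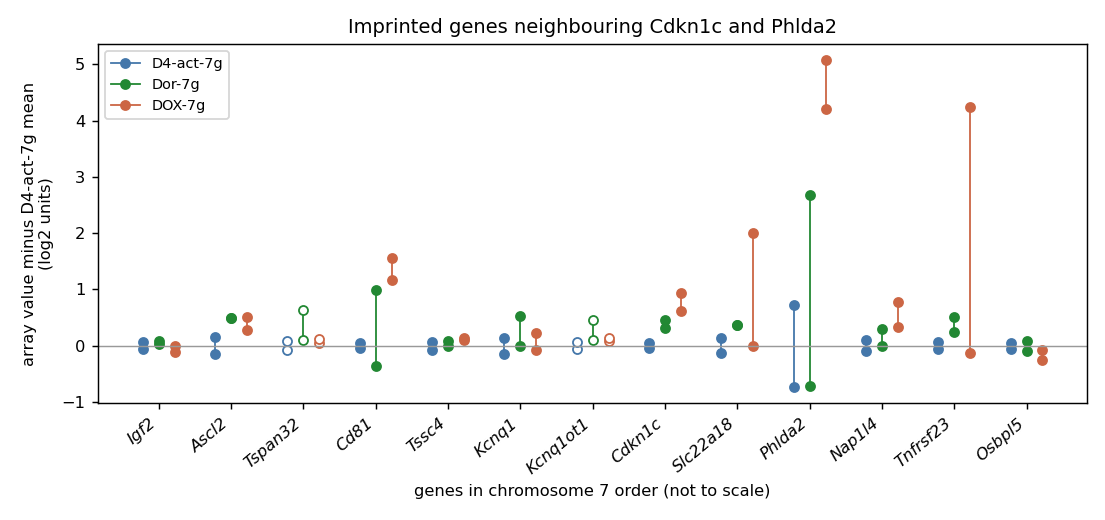
Array values minus the D4-act-7g mean in log2 units (vertical axis) for 13 imprinted genes in chromosome 7 order; each point is an array, the line joins the 2 arrays of a group, and open points mark genes that did not enter the fit. Both DOX-7g points lie clearly above 0 in Cd81, Cdkn1c and Phlda2, whereas in Slc22a18 and Tnfrsf23 only 1 of the 2 does.

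Among other imprinted genes, 31 of 51 listed entered the fit, and 0 passed in any comparison by limma. At an unadjusted p under 0.05 the counts were 3, 3 and 1 of 31 (Dor-7g versus D4-act-7g, DOX-7g versus D4-act-7g, DOX-7g versus Dor-7g), against 14.3%, 11.0% and 11.6% of all genes. Their median differences were 0.20 for Dor-7g versus D4-act-7g, 0.07 for DOX-7g versus D4-act-7g and -0.16 for DOX-7g versus Dor-7g. Of the paternally expressed ones the smallest p-values belonged to Sfmbt2, a Polycomb gene needed in the trophoblast, at 0.56 ± 0.19 in Dor-7g versus D4-act-7g (adjusted p = 0.266) and -0.49 ± 0.19 in DOX-7g versus Dor-7g (adjusted p = 0.419). Impact, a regulator of the kinase GCN2, was at -0.45 ± 0.22 (Dor-7g) and -0.68 ± 0.22 (DOX-7g) against D4-act-7g (adjusted p = 0.416 and 0.328). Smoc1, a matrix protein gene, was at -0.53 ± 0.17 in DOX-7g against D4-act-7g (adjusted p = 0.344), and Ndn, a growth suppressor gene of neurons, at 0.56 ± 0.29 in DOX-7g against Dor-7g (adjusted p = 0.514).

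Of the maternally expressed ones, Ascl2, a transcription factor of the trophoblast, was at 0.49 ± 0.20 in Dor-7g against D4-act-7g (SE; limma, adjusted p = 0.342), and the transporter gene Slc22a2 at 0.43 ± 0.17 (adjusted p = 0.333). The nucleosome assembly gene Nap1l4 was at 0.55 ± 0.23 in DOX-7g against D4-act-7g (adjusted p = 0.472) and at 0.40 ± 0.23 against Dor-7g (adjusted p = 0.541).

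Of the rest of the IGF axis, 13 of 15 listed genes had a probeset of their own and 10 entered the fit, of which 0 passed in any comparison by limma. At an unadjusted p under 0.05 the counts were 1, 3 and 0 of 10 in the same order, against 14.3%, 11.0% and 11.6% of all genes. Igf1, the other IGF ligand, stood at 4.45 and 4.38 log2 units (D4-act-7g), 4.90 and 5.88 (Dor-7g) and 5.82 and 6.80 (DOX-7g). The D4-act-7g arrays were the lowest, and the Dor-7g and DOX-7g ranges overlapped. In single comparisons with D4-act-7g, 24.3% (Dor-7g) and 19.2% (DOX-7g) of all genes were higher on all arrays. The difference of Igf1 was 1.90 ± 0.44 for DOX-7g versus D4-act-7g (SE; adjusted p = 0.174; adjusted p = 0.0401 with array weights) and 0.92 ± 0.44 for DOX-7g versus Dor-7g (adjusted p = 0.488).

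Igf2bp3, which encodes a protein that binds Igf2 and other mRNAs, stood at 8.33 and 8.31 (D4-act-7g), 7.11 and 7.75 (Dor-7g) and 7.45 and 7.44 (DOX-7g). All 4 arrays of day 7 lay below both of day 4. In single comparisons with D4-act-7g, 21.5% (Dor-7g) and 30.5% (DOX-7g) of all genes were lower on all arrays. Against D4-act-7g it was at -0.89 ± 0.25 (Dor-7g) and -0.88 ± 0.25 (DOX-7g) log2 units (SE; limma, adjusted p = 0.202 and 0.255). The former passed without Dor-7g replicate 2 (-1.21, adjusted p = 0.0204), and the latter with array weights (adjusted p = 0.047). The binding protein gene Igfbp3 was at 0.50 ± 0.22 in Dor-7g against D4-act-7g (adjusted p = 0.383) and at -0.45 ± 0.22 in DOX-7g against Dor-7g (adjusted p = 0.498). The receptor genes Igf1r, which did not enter the fit, and Insr lay between 4.34 and 4.84 on all arrays, near the array median.

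Of 10 measured factors that keep the methylation state of imprinted regions, methylated or not, 9 entered the fit (Arid4a did not). In limma 1 passed in Dor-7g versus D4-act-7g, where 0.984% of all genes did, and none in the other comparisons. At an unadjusted p under 0.05 the count was 1 of 9 in each comparison. The shares of all genes were 14.3% (Dor-7g versus D4-act-7g), 11.0% (DOX-7g versus D4-act-7g) and 11.6% (DOX-7g versus Dor-7g). Dppa3, which shields maternal DNA methylation in the zygote, stood at 12.92 and 12.96 log2 units (D4-act-7g), 10.63 and 10.62 (Dor-7g) and 12.05 and 11.63 (DOX-7g). The 3 groups did not overlap. How many of all genes had 3 groups apart was not counted, but in single comparisons 41.7% to 49.7% of all genes did not overlap. It fell by 2.31 ± 0.20 in Dor-7g against D4-act-7g (SE; limma, adjusted p = 0.0109), and did not pass when D4-act-7g replicate 1 (-2.33, adjusted p = 0.125) or replicate 2 (-2.30, adjusted p = 0.109) was left out. In DOX-7g it was at -1.10 ± 0.20 against D4-act-7g (adjusted p = 0.1; adjusted p = 0.029 with array weights) and at 1.21 ± 0.20 against Dor-7g (adjusted p = 0.0771; adjusted p = 0.0372 with the trend and robust options). Dnmt1, the maintenance methyltransferase, was at -0.27 ± 0.18 in Dor-7g against D4-act-7g (adjusted p = 0.558). Ctcf, an insulator protein, was at -0.47 ± 0.24 in DOX-7g against D4-act-7g (adjusted p = 0.585), and the histone methyltransferase gene Setdb1 at 0.48 ± 0.20 in DOX-7g against Dor-7g (adjusted p = 0.445).

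Markers of other cells moved with some of these values. Of the blood list, 7 of 12 were named, and their mean level was 6.96 and 6.77 on the DOX-7g arrays, where Phlda2 was highest, against 4.50 to 5.64 on the other 4. The neutrophil genes S100a9 (9.55 and 9.55, against 4.49 and 4.60 in D4-act-7g) and Ly6g (7.41 and 7.39, against 3.65 and 4.08) rose in DOX-7g against D4-act-7g (limma, adjusted p = 0.00112 and 0.00434). Ly6g was below the array median outside DOX-7g, so it entered the fit only through the group where it was high. S100a9 was below the array median on both D4-act-7g arrays. By contrast, Ptprc, found on all white blood cells, lay between 3.57 and 3.82 on the 6 arrays, below the median of each. The macrophage gene Cd68 went the other way, at 7.41 and 6.87 in DOX-7g against 8.04 and 9.34 in D4-act-7g (-1.55, adjusted p = 0.594), and Itgam differed by -0.01 there. S100a9 also rose in Dor-7g against D4-act-7g (adjusted p = 0.0274). S100a8, of the same list, stood at 10.91 and 10.12 (DOX-7g), 2.81 and 7.18 (Dor-7g) and 3.28 and 3.16 (D4-act-7g). It was highest on both DOX-7g arrays and, as in Phlda2, higher on Dor-7g replicate 2 than on replicate 1. S100a9 was lower on Dor-7g replicate 2 (6.41, against 7.10 on replicate 1). In DOX-7g, S100a8 was 7.30 above its D4-act-7g level and did not pass (limma, adjusted p = 0.0949). The epiblast list was lowest on both DOX-7g arrays, with most of the gap in Tdgf1 (3.36 and 3.32, against 5.91 and 4.86 in D4-act-7g). All 5 of its genes in the fit had negative differences from D4-act-7g, and 0 passed. The difference was -2.05 in Tdgf1 (limma, adjusted p = 0.46) and -0.19 to -0.43 in the others. Sox2, which did not enter the fit, went the other way (0.15). Of the uterine stroma list, 9 of 10 were named, with means of 5.14 and 5.67 on Dor-7g replicates 1 and 2 and 4.65 to 4.99 on the other 4 arrays. That order of the Dor-7g arrays came from Dcn, at 9.29 on replicate 2 and 3.67 to 4.22 on the other arrays. Without Dcn the means were 5.26 and 5.22 on Dor-7g replicates 1 and 2. The medians of these arrays were 4.87 and 4.67, so the list stood further above the array median on replicate 2. Of the 8 remaining genes, 5 (Col1a1, Col1a2, Col3a1, Hoxa10 and Bmp2) were lower on replicate 2 and 3 (Lum, Des and Hand2) were higher, before any allowance for the array medians.

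The uterine epithelium list, with 10 of 12 named, had means of 4.98 and 5.08 (D4-act-7g), 5.48 and 5.26 (Dor-7g) and 5.19 and 5.34 (DOX-7g). Of its 7 genes in the fit, 7 were higher in Dor-7g and 6 in DOX-7g than in D4-act-7g, and 0 passed. The largest differences were those of Muc1, 0.99 in Dor-7g and 1.22 in DOX-7g (limma, adjusted p = 0.0981 and 0.0643). Of the differentiated trophoblast list, 5 of 9 were named, with means of 4.46 to 4.91 outside DOX-7g and of 5.06 and 5.08 in it. The higher DOX-7g means rested on Plac1, an X-linked placental gene. It stood at 5.75 and 5.98 (D4-act-7g), 5.90 and 6.79 (Dor-7g) and 8.55 and 7.99 (DOX-7g). Its difference between DOX-7g and D4-act-7g was 2.41 (limma, adjusted p = 0.0552). Hand1, the other gene of this list in the fit, went the other way in DOX-7g, by -0.10 against D4-act-7g and -0.30 against Dor-7g. Ctsq, Tpbpa and Psg17 were below the array median on every array. The part of such cells in the values of Phlda2 and the other genes was not tested.

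Phlda2 had the widest range of group means among the 7 genes, so the 3 genes whose pattern over the 6 arrays was most like its own were sought among the genes of the fit, leaving out predicted genes, pseudogenes and small RNAs. They were Samhd1 (Pearson's r of 0.992), a dNTP hydrolase, Mbnl3 (0.986), a splicing regulator, and Fam122b (0.985). With 6 arrays and 14020 genes to choose from, correlations this high describe the pattern only. Samhd1 stood at 5.17 and 4.73 log2 units (D4-act-7g), 4.98 and 5.76 (Dor-7g) and 6.41 and 6.10 (DOX-7g), so that it too was higher on Dor-7g replicate 2 than on replicate 1. None of the 3 passed in any comparison (limma, adjusted p of 0.195 or more).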

How the data were processed

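The authors deposited 1 log2 expression value per probeset for 41345 probesets and 6 arrays. RMA, which corrects background, normalizes between arrays and summarizes probes, and Partek 6.6 are named in the submitters' processing notes, without settings. A genome build is not stated there. No detection calls were used here, and the number of arrays limits the precision.

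Probesets were named through the platform annotation, with symbols updated by Entrez identifier from RefSeq (assembly GRCm38.p6, also used for gene order): 23521 had 1 symbol, 1814 several and 16010 none here, and 193 identifiers were not matched. A gene was tested where its probeset reached the median of at least 2 of the 6 arrays, each gene being represented by its brightest probeset. All 6 arrays were fitted in limma 3.58.1 (R 4.3.3), with no block. The fit was tested on simulated data. Named were all members, from the other lists the genes past the threshold and the 2 with the smallest p per list and comparison, and for the member with the widest range the 3 genes most like it. Neighbours on chromosome 7, and the markers, Igf1r and Insr given by value, were named after their values were seen. Members and lists were chosen with earlier results of these data known. Same-numbered arrays did not deviate together (r of -0.137 to -0.0114 over genes), and no pairing was used. These correlations cannot exclude that same-numbered samples were handled together.

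Alternatives covered normalization, filter, probeset rule, variance model, array weights, a replicate block, a fit of only the arrays compared, and leaving out each array.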

Additional observations from a re-analysis of the deposited data

How the results depend on the processing

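Most results for the imprinted growth-control genes kept their direction and stayed short of the threshold: of 315 values of single genes under alternatives, 296 did, 5 passed and 14 turned in direction. Changes of filter, probeset rule, variance model, array weights or block, and a fit of only the arrays compared, left each difference as it was. Only calls could change under these, so many of the 296 kept directions were fixed in advance. Among those 7 genes 1 passed in DOX-7g versus D4-act-7g with array weights and 1 with only the 4 arrays compared, each time Phlda2; leaving out an array gave 0 to 1 there and 0 to 1 in DOX-7g versus Dor-7g. Of 31 other imprinted genes 1 (Cd81) passed with only the 4 arrays compared, and 0 to 1 on leaving out an array in either comparison with DOX-7g. With array weights 2 IGF axis genes and 1 imprint-keeping gene passed in DOX-7g versus D4-act-7g; 1 imprint-keeping gene passed in DOX-7g versus Dor-7g with trend and robust options. For Dor-7g versus D4-act-7g, leaving out an array gave 0 to 1 IGF axis genes, 0 to 1 imprint-keeping genes and 0 of the imprinted growth-control and other imprinted genes. In each comparison, leaving out an array of the group not compared gives the same fit as only the 4 arrays compared. In DOX-7g versus D4-act-7g the pass of Phlda2 in that fit is therefore counted more than once among the 5, and the passes of Cd81 are 1 result. The cause of the changes in calls was not tested.

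Counts over all genes moved more. For Dor-7g versus D4-act-7g they were 138 as reported, 79 with array weights, 82 with the replicate block, 86 with only the 4 arrays compared, and 11 to 1172 on leaving out an array. For DOX-7g versus D4-act-7g they were 134, 461 with array weights, 296 with only the 4 arrays and 43 to 296 on leaving out an array. For DOX-7g versus Dor-7g they were 163, 104, 86 and 67 to 880. The replicate block changed no call of an imprinted, IGF axis or imprint-keeping gene. Same-numbered arrays did not deviate together (r = -0.0241 for D4-act-7g and Dor-7g, -0.0114 for D4-act-7g and DOX-7g, and -0.137 for Dor-7g and DOX-7g). A crossed replicate block on the 4 arrays of DOX-7g versus Dor-7g, chosen after seeing the data, called 85 genes, 0 of them among the 7 imprinted growth-control genes.

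Directions that turned, none past the threshold, were those of Igf2 in Dor-7g versus D4-act-7g (-0.01 after a repeat quantile normalization, -0.08 after centring, and -0.01 to 0.12 on leaving out an array), of Igf2r there (-0.07 and -0.09 after the same normalizations), of Phlda2 there (-0.72 to 2.68 on leaving out an array) and of Igf2 in DOX-7g versus Dor-7g (0.03 after centring). On leaving out an array in DOX-7g versus D4-act-7g, Igf2 ranged from -0.12 to 0.02, Peg3 from -0.14 to 0.06, Peg10 from -0.07 to 0.13 and Mest from -0.15 to 0.30. Differences of genes near the array median are limited by background.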
